A study of Mus musculus with 24 samples.

Results

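Autophagy and the lysosome were followed through 50 genes in the livers of mice fed a methionine-restricted (MR) diet or the control (Con) diet. The genes were taken by name from a table of 9049 liver genes. They were all genes whose symbol begins with Atg and a digit, Atp6v, Lamp and a digit, Map1lc3, Gabarap, or Cts and a single letter, together with Tfe3, Tfeb, Sqstm1, Becn1, Ulk1 and Ulk2. The rule used names alone, and it was chosen with earlier results of these data known. By role the 50 genes were 2 transcription factors, 8 genes that start autophagy, 10 genes of the conjugation machinery, 5 genes for LC3 and GABARAP proteins and a cargo receptor, 13 subunits of the lysosomal proton pump (V-ATPase), 2 lysosomal membrane proteins and 10 cathepsins.

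The study asked which liver transcripts respond in the first hours after dietary methionine falls. Male C57BL/6J mice of 2 months, kept on a reverse light cycle and fed only in the dark, had all been adapted to the Con diet. At lights off the MR 6 h and MR 3 h groups received pellets with 0.17% methionine, while the Con 6 h and Con 3 h groups stayed on 0.86%. Each group held 6 mice, 1 library a mouse, named here by the number in its label. Because all mice began eating at the same hour, time on the diet, time since the fast ended and hour of the day cannot be told apart. The labels name no transgene or gene deletion.

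Autophagy encloses cytoplasm in a double membrane and delivers it to the lysosome, where acid hydrolases break it down and return amino acids to the cell. The ULK1 kinase complex and the Beclin 1 lipid kinase complex start the membrane, a ubiquitin-like conjugation system attaches LC3 and GABARAP proteins to it, and receptors such as p62 (Sqstm1) link cargo to LC3. TFEB and TFE3 are related transcription factors that mTORC1 holds in the cytoplasm when amino acids are plentiful, and that can otherwise enter the nucleus and bind the promoters of lysosomal genes at a palindromic E-box. The liver is known for a strong autophagic response to fasting that declines with feeding.

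The promoters of the genes were read first, since the E-box is the sequence through which TFE3 and TFEB are known to act. RefSeq promoters (GRCm38.p6, 250 bases before to 50 bases after the start) were matched for 39 of the 50 genes. The core E-box CACGTG, which reads the same on both strands, was present in 13 of these 39 (33.3%), against 854 of the 6934 genes of the table with a promoter (12.3%) and 2187 of all 27025 genes with a promoter (8.09%). Its extended form TCACGTG, searched on both strands and always overlapping the core, was present in 10 (25.6%), against 7.48% of the table's genes and 4.29% of all genes. By role the core was found in 4 of 8 V-ATPase promoters, 4 of 8 cathepsin promoters, 3 of 8 conjugation promoters, 1 of 2 lysosomal membrane protein promoters and 1 of 7 promoters of genes that start autophagy. It was in 0 of 4 LC3, GABARAP and receptor promoters and in neither transcription factor's promoters.

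The start is that of the promoter table. It gives 47 starts for the 39 genes, and a gene was counted once if any of its windows held the motif. Of these starts 24 lie inside the RefSeq gene and 13 of them more than 250 bases inside, where a longer transcript begins further upstream.

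Of the 13 genes with a core E-box, 4 (30.8%) passed the test for a change with time described further on, against 14 of the 39 genes with a promoter (35.9%) and 33.3% of all genes in the table. These 4 were Atg7, Ctsl, Atg14 and Atp6v0d1, and their share lay near both of the others. The sequence around the core is shown for a gene that rose and a gene that fell between 3 h and 6 h. The capitals mark the core, each sequence is read 5′ to 3′ on the strand of its gene, and the positions are of GRCm38.p6.
Atg7 (chr6:114670937-114670996, plus strand): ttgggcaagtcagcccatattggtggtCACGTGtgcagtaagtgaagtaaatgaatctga
Atp6v0d1 (chr8:105566035-105566094, minus strand): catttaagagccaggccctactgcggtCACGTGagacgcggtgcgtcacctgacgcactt
In Atg7 the core begins 132 bases before a start that lies 27969 bases inside the RefSeq gene, so the window is internal to the gene, and 0 of its bases are in an annotated exon of Atg7. In Atp6v0d1 the start is the 5′ end of the RefSeq gene, and the core lies across it, beginning 3 bases before it. The core is part of the extended form in both. In Ctsl the start lies 252 bases inside the RefSeq gene, and the core, 236 bases before that start, is also inside the gene. In Atg14 the core lies across the 5′ end of the RefSeq gene. A letter match describes the window and is not a measured binding site.

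A pair of other motifs was searched on both strands in the same windows. TGATGCAA, which ATF4 binds with C/EBP proteins, was found in 0 of the 39 promoters, against 0.793% of the table's genes and 1.03% of all genes. TGACNNNGC, the core that NFE2L2 binds, was found in 7 (17.9%), against 17.5% of the table's genes and 14% of all genes. Neither says anything about binding outside these windows.

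A level is the deposited score of a gene after TMM scaling, a method that balances libraries on the genes that change least (factors between 0.945 and 1.1). Before it the libraries summed to between 991702 and 995314 units. The kit reads transcripts near their 3′ end. The study's methods name TPM, a unit divided by transcript length, for a filter before its pathway analysis. Whether the deposited values were divided by length is not given in the sources used here, so the order of levels between genes is uncertain. A log2 fold change is on the scale of log2(level + 1), which understates changes of low genes. A gene is called changed where its adjusted p from limma, over all 9049 genes, is under 0.05. On average over the 24 libraries the 50 genes ranged between 3.54 and 686 units with a median of 43.8 units, and the median over all genes was 15.7 units. Lamp1, a heavily glycosylated protein of the lysosomal membrane, had the highest value, and 6 genes, Tfe3, Tfeb, Atg2b, Atg4a, Atg4c and Atg16l2, averaged under 10 units, where the whole numbers of the deposited table leave few possible values. Mean levels of the highest genes of each role were 51.5 units for Becn1 and 45.9 for Ulk2 among the genes that start autophagy, 124 for Atg3 and 57 for Atg5 in the conjugation machinery, and 275 for Sqstm1 and 196 for Gabarapl1 in their group. They were 111 units for Atp6v1f and 97 for Atp6v0e in the V-ATPase, 378 for Ctsd and 332 for Ctsl among the cathepsins, and 353 for Lamp2.

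The tissue and its libraries were examined before the comparisons. All 7 hepatocyte markers were listed, summing to at least 137528 units in every library, while 0 of 7 lymphocyte and 0 of 4 neutrophil markers were. The first principal component over all genes (31.3% of the variance) separated the 6 h from the 3 h libraries, and the second (14.2%) was set by Con 6 h 4238. In that library 17 Kupffer cell and macrophage markers summed to 1730 units, against 642 to 853 in the other 5 Con 6 h libraries, and 6 stellate cell markers summed to 710 units, against 405 to 501. Without it 9 of the 50 log2 fold changes between MR and Con at 6 h changed sign and 18 more moved by over 1.5 times. MR 3 h 4223 held 1675 units of pancreas markers, against at most 47.5 elsewhere, and MR 6 h 4214 held 508 units of adrenal markers, against at most 64.7 elsewhere. MR 6 h 4219 held 1538 units of blood markers, against 737 to 831 in the other MR 6 h libraries. The blood sum also varied in the other groups, reaching 1401 units in Con 3 h 4220, 1149 in MR 3 h 4223 and 1123 in Con 6 h 4221.

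At 6 h, 1 of the 50 genes was called between MR and Con, and it was Tfe3. Over all genes 0.74% were called at 6 h and 0.608% were called and higher in MR, so that a single call among 50 is close to the background. An unadjusted p under 0.05 was found for 7 of the 50 genes (14%), against 14.2% of all genes. The median log2 fold change of the 50 genes was -0.03, against 0.01 over all genes, and 20 of the 50 were positive. None of the 44 other lysosomal genes, 30 other autophagy genes and 13 genes for mTORC1 and Tfe3 control that were listed out of 48, 31 and 19 was called by limma at 6 h.

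Tfe3, on chromosome X from 7762530 to 7775202, encodes the transcription factor described above. In the deposited whole numbers it stood at 7, 6, 6, 6, 6 and 5 units in the MR 6 h mice, against 4, 3, 4, 3, 6 and 5 units in the Con 6 h mice. After scaling these were 5.06 (lowest), 6.13 (median) and 6.87 (highest) units in MR 6 h, against 3.02, 4.07 and 5.48 units in Con 6 h. After scaling the MR mice were thus high as a group, with 5 of 6 above every Con mouse and 1 within the Con range. In the deposited whole numbers only the MR mouse at 7 units lay above every Con mouse. There Con 6 h 4238, the library with the highest scaling factor (1.1), also stood at 6 units.

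The means of Tfe3 were 6.06 ± 0.601 units in MR 6 h and 4.15 ± 1.03 units in Con 6 h (SD, n = 6 each). The log2 fold change was 0.47 (standard error 0.11, 95% interval 0.24 to 0.71, adjusted p = 0.0476 from limma), and the exact two-sided permutation test over the 12 mice gave p = 0.00649. The direction held in every alternative that kept the gene, while the call rested on a narrow margin. It was lost without 19 of the 24 libraries taken out singly (adjusted p from 0.0509 to 0.115, log2 fold change from 0.41 to 0.52), and with MR 3 h 4223, MR 6 h 4214 and Con 6 h 4238 left out together (0.51, adjusted p = 0.0683). It held without MR 3 h 4208 (adjusted p = 0.0408), MR 3 h 4210 (0.0452), Con 3 h 4233 (0.0457), Con 6 h 4238 (0.0203) or Con 6 h 4241 (0.0284).

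At 3 h Tfe3 had 3.03, 3.97 and 5.11 units (lowest, median and highest) in MR mice, against 3.88, 3.97 and 5.06 units in Con mice, and the groups lay on top of each other. The log2 fold change was -0.01 (95% interval -0.25 to 0.23, adjusted p = 1 from limma). The test of the difference between the diet effects at 6 h and at 3 h gave 0.48 (95% interval 0.15 to 0.82), with an unadjusted p of 0.00623 and an adjusted p of 0.512 by limma, so the effects are not shown to differ.

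Tfeb, the close relative of Tfe3, had 3.03, 5.37 and 6.35 units in MR 6 h, against 2.05, 4.12 and 6.09 units in Con 6 h. The groups overlapped over most of their range, and the log2 fold change was 0.24 (95% interval -0.10 to 0.58, adjusted p = 0.509 from limma). Its level averaged 4.79 units over all libraries, against 4.62 for Tfe3. The other family genes, Mitf and Tfec, were asked for in the list of mTORC1 and Tfe3 control, of which 13 of 19 genes were measured. No value of either is given here.

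**Figure D1:**
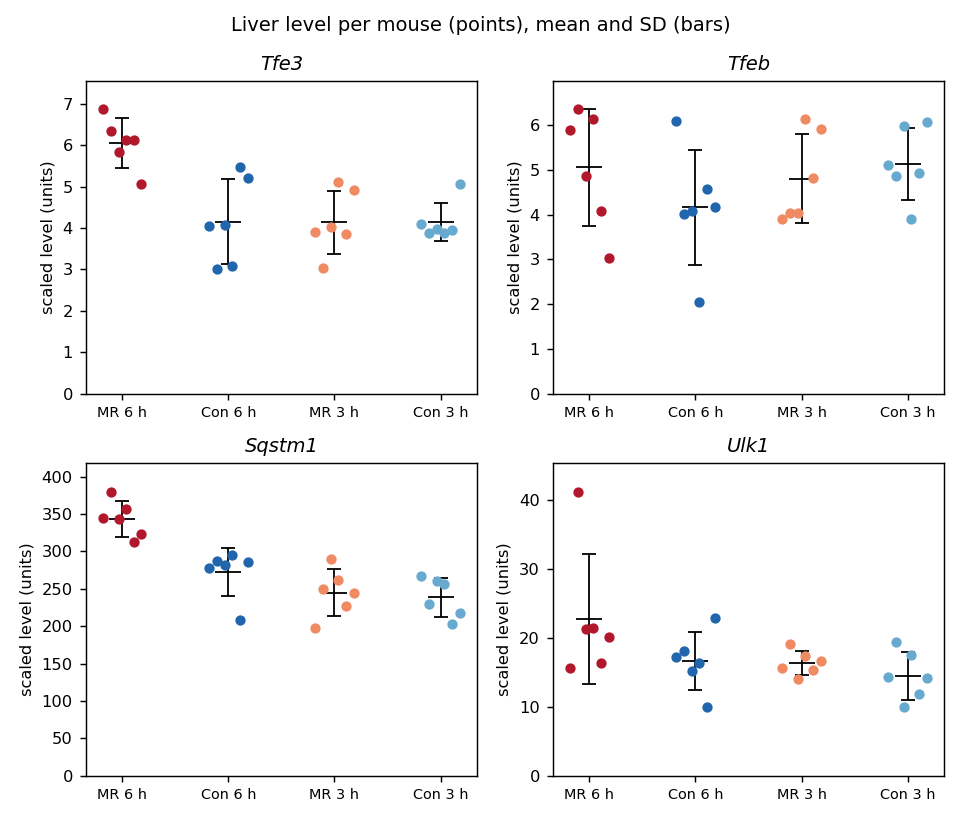
Scaled level (units, axes start at 0) of Tfe3, Tfeb, Sqstm1 and Ulk1 in the liver of each mouse (points) by group, with the mean and SD of the 6 mice (bars). In Tfe3 5 of the 6 MR 6 h mice and in Sqstm1 all 6 of them lie above every Con 6 h mouse, while in Tfeb and Ulk1 the groups overlap. For Tfe3 this holds after scaling and not in the deposited whole numbers.

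Sqstm1, on chromosome 11 from 50200152 to 50210820, encodes p62, which carries ubiquitinated cargo to LC3. It had 312, 344 and 380 units (lowest, median and highest) in MR 6 h, against 208, 284 and 295 units in Con 6 h, and the groups did not overlap. Of the 50 genes it alone was without overlap between the diets at 6 h, and the share over all genes was not counted. Sqstm1 had a log2 fold change of 0.34 (standard error 0.09, 95% interval 0.15 to 0.53), and its adjusted p of 0.0841 by limma missed the threshold. Its exact permutation p was 0.00216, the smallest that 6 mice against 6 allow, and it is not adjusted for the 50 genes. The lowest Con 6 h value belonged to Con 6 h 4238, and without that library the log2 fold change was 0.26 (adjusted p = 0.18). At 3 h the values were 197, 247 and 289 units in MR and 202, 243 and 267 units in Con, with full overlap and a log2 fold change of 0.03 (adjusted p = 0.945).

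Among the genes that start autophagy, Ulk1, the kinase that mTORC1 restrains when amino acids are present, had 15.7, 20.8 and 41.3 units in MR 6 h, against 10, 16.8 and 22.9 units in Con 6 h. A single mouse, MR 6 h 4219, lay above all Con mice, and the log2 fold change of 0.39 (95% interval -0.01 to 0.78, adjusted p = 0.361 from limma) did not pass. Without that mouse, which also held the 1538 units of blood markers, it was 0.21 (adjusted p = 0.593), and the part of blood in the value was not tested. Ulk2, its paralog, had 40.2, 46.3 and 48.1 units in MR 6 h, against 28.3, 45.5 and 49.9 units in Con 6 h, a log2 fold change of 0.09 (adjusted p = 0.681). The value of 28.3 was that of Con 6 h 4238, without which the log2 fold change was -0.03. Becn1, which encodes Beclin 1, had 44.9, 51.7 and 53.0 units in MR 6 h, against 48.9, 50.0 and 52.9 units in Con 6 h. Its log2 fold change of 0.00 had an interval from -0.10 to 0.11.

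The smallest p of the role belonged to Atg2b, a lipid transfer protein of the growing membrane, with 9.53, 9.96 and 11.2 units in MR 6 h, against 7.30, 8.60 and 10.4 units in Con 6 h. The log2 fold change was 0.20 (adjusted p = 0.269 from limma), and the groups overlapped. Atg9a, the scramblase of the vesicles that seed the membrane, had a log2 fold change of 0.14 (adjusted p = 0.449). The other 3, Atg13 and Atg101 of the ULK1 complex and Atg14 of the Beclin 1 complex, had log2 fold changes of 0.07, -0.05 and -0.01.

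The conjugation machinery gave 3 positive and 7 negative log2 fold changes at 6 h, with a median of -0.07 and no call by limma. Atg5, which joins Atg12 to direct LC3 lipidation, had 48.7, 53.3 and 57.4 units in MR 6 h, against 55.8, 58.8 and 69.8 units in Con 6 h. Of the MR mice 5 lay below every Con mouse, with a log2 fold change of -0.19 (95% interval -0.31 to -0.06, adjusted p = 0.175, exact permutation p = 0.00649). Atg4b, a protease that trims LC3 for conjugation, had 21.2, 21.4 and 22.6 units in MR 6 h, against 21.9, 23.5 and 24.4 units in Con 6 h, and 4 of the 6 MR mice lay below all Con mice. Its log2 fold change was -0.09 (adjusted p = 0.324, exact permutation p = 0.0130).

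Atg7, the enzyme that activates both Atg12 and LC3, had a log2 fold change of 0.16 (adjusted p = 0.372 from limma) and Atg12 one of -0.12 (adjusted p = 0.379). The remaining conjugation genes lay between -0.10 for Atg4c and 0.08 for Atg16l1. Besides Sqstm1, the LC3 and GABARAP genes had log2 fold changes at 6 h of 0.17 for Gabarapl1, 0.05 for Gabarapl2, -0.03 for Map1lc3a and -0.06 for Map1lc3b, with adjusted p between 0.631 and 0.912. Without Con 6 h 4238 that of Gabarapl1 was 0.00.

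The V-ATPase, which acidifies the lysosome with a membrane sector V0 and a cytosolic ATP-splitting sector V1, showed no call at 6 h in its 13 listed subunits. Their median log2 fold change was -0.03, and 5 were positive. Atp6v0e, a small V0 subunit, had 86.0, 90.7 and 97.1 units in MR 6 h, against 94.6, 101 and 133 units in Con 6 h, a log2 fold change of -0.19 (adjusted p = 0.342 from limma). Its highest Con value was that of Con 6 h 4238, without which the log2 fold change was -0.12.

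Atp6v0c, the proteolipid of the proton-carrying ring, had the widest V-ATPase difference, with 48.0, 72.2 and 88.9 units in MR 6 h, against 32.9, 57.8 and 70.0 units in Con 6 h. The log2 fold change was 0.36 (95% interval -0.02 to 0.75, adjusted p = 0.372), and the groups overlapped. At 3 h it pointed the other way, at -0.25 (adjusted p = 0.801), and the difference of both effects was 0.61 with an unadjusted p of 0.0288 and an adjusted p of 0.668. RefSeq lists 2 pseudogenes named after Atp6v0c and 1 each after Atg4a and Gabarapl2, so that reads of these 3 genes may be shared with their pseudogenes and their levels are uncertain. Pseudogenes of the 50 genes under other names were not searched for. The other V-ATPase subunits with the smallest p, Atp6v1a and Atp6v1d of the V1 sector, had log2 fold changes of 0.09 and -0.11.

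All 10 cathepsins, the lysosomal proteases that include the abundant Ctsb, Ctsd and Ctsl, had negative log2 fold changes at 6 h, between -0.40 and -0.02 with a median of -0.08, and none was called by limma. Ctsh, an aminopeptidase, had the smallest p, with 287, 302 and 326 units in MR 6 h, against 312, 328 and 345 units in Con 6 h. Its log2 fold change was -0.13 (95% interval -0.23 to -0.03, adjusted p = 0.246 from limma, exact permutation p = 0.00649). Ctsc and Ctso had log2 fold changes of -0.23 (adjusted p = 0.385) and -0.09 (adjusted p = 0.541), that of Ctsc being -0.13 without Con 6 h 4238.

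The largest difference among the cathepsins was that of Ctss, the cathepsin of antigen-presenting cells, with 44.5, 50.0 and 60.3 units in MR 6 h, against 49.9, 58.9 and 156 units in Con 6 h. The value of 156 came from Con 6 h 4238, the library with 1730 units of macrophage and 710 units of stellate cell markers, and 7 of the 10 cathepsins had their highest Con 6 h value in it. Without that library the log2 fold change of Ctss was -0.17 in place of -0.40, 7 of the 10 cathepsins were negative, and their median was -0.03. The macrophage marker sum had a median of 597 units in MR 6 h (557 to 690) and 693 units in Con 6 h (642 to 1730), and the part of either cell type in these differences was not tested. In bulk liver RNA, fewer cells of a type and less RNA per cell cannot be told apart. Lamp1 and Lamp2, the major membrane glycoproteins of the lysosome, had log2 fold changes of -0.07 (adjusted p = 0.540) and 0.03 (adjusted p = 0.838).

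**Figure D2:**
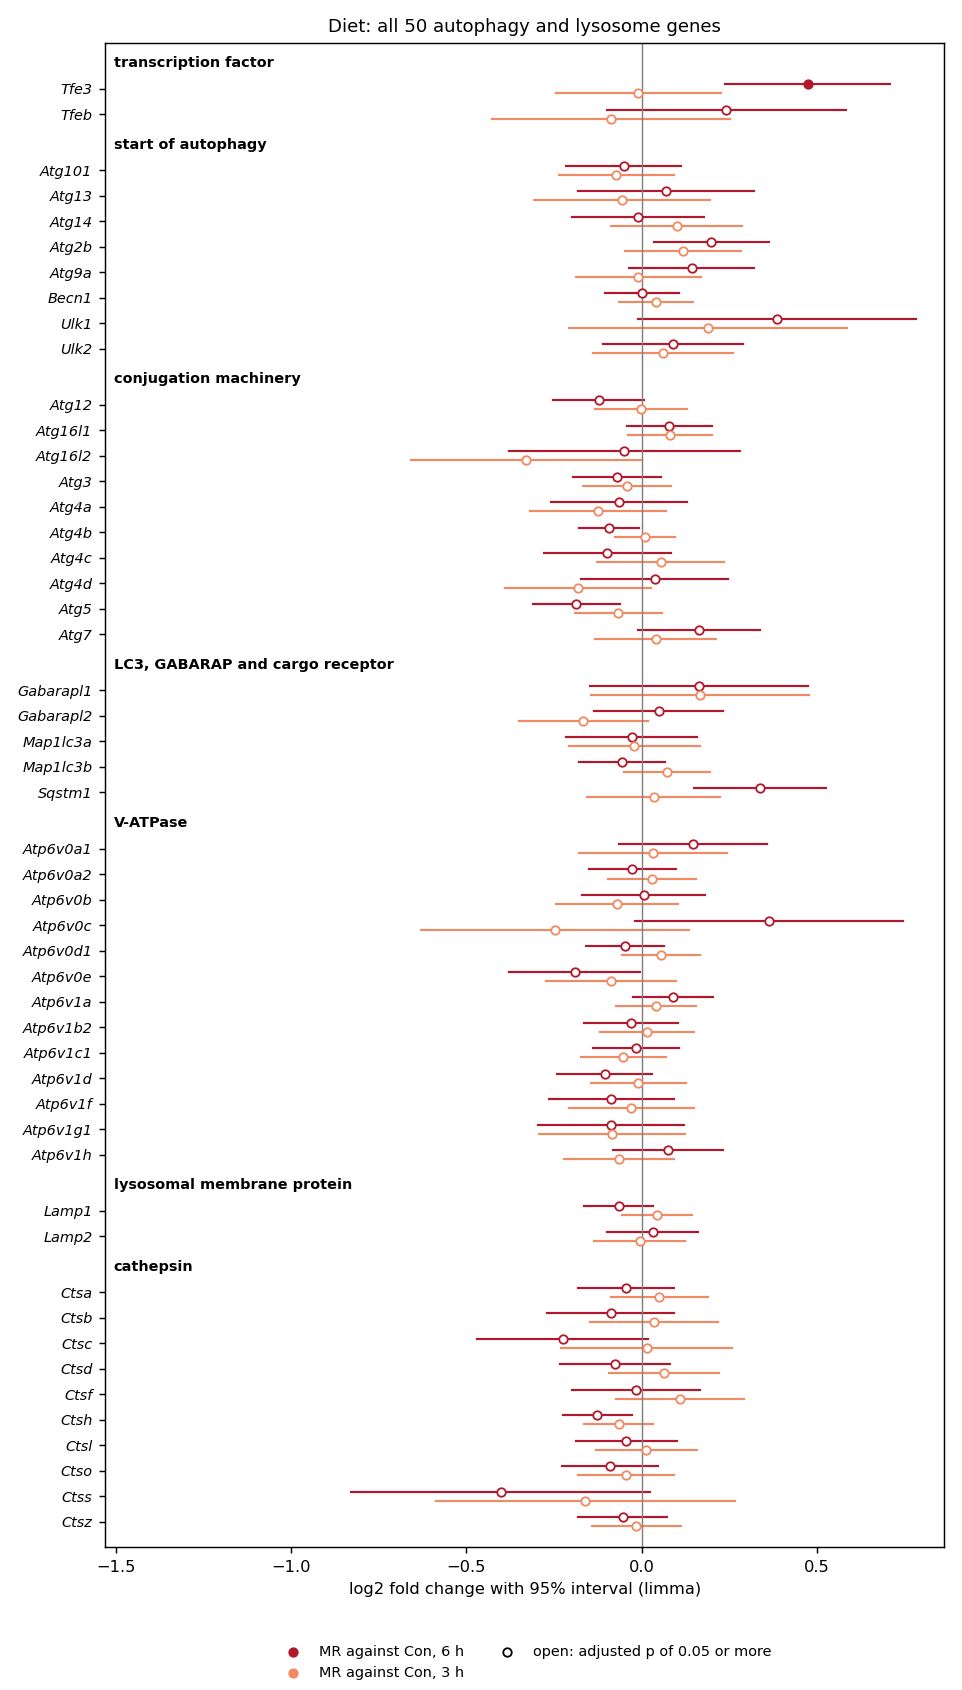
Log2 fold change of MR against Con with its 95% interval (limma) for all 50 genes, grouped by role, at 6 h (dark red) and at 3 h (orange), with filled points where the adjusted p is under 0.05. Tfe3 at 6 h is the only filled point, and every cathepsin point at 6 h lies left of 0. At 6 h the intervals of 7 of the 50 genes (14%), Tfe3 and Sqstm1 among them, stand clear of 0, against 14.2% of all genes.

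At 3 h none of the 50 genes was called between MR and Con, which is also the background, since 0% of all genes were. None of the 50 had an unadjusted p under 0.05 by limma, against 6.66% of all genes, and the smallest adjusted p was 0.741. The median log2 fold change was -0.00, with 24 positive genes, and the 95% interval reached a median of 0.17 to either side of the estimate. The smallest p belonged to Atg16l2, a relative of the LC3 conjugation factor Atg16l1, with 1.92, 2.03 and 3.03 units in MR 3 h, against 2.91, 3.01 and 3.89 units in Con 3 h and a log2 fold change of -0.33. At these levels a single unit of the deposited scale separates the groups.

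Among the remaining roles at 3 h, Atg4d had -0.18 (adjusted p = 0.753), Gabarapl2 -0.17 (adjusted p = 0.748), Ulk1 0.19 (adjusted p = 0.847), Atg2b 0.12 (adjusted p = 0.775) and Ctsh -0.07 (adjusted p = 0.792) on the log2 scale. The cathepsins had a median of 0.01 at 3 h with 6 of 10 positive. The interaction of diet and time was called for none of the 50 genes, against 0.0663% of all genes. The 3 genes with an unadjusted interaction p under 0.05 by limma were Tfe3, Sqstm1 (0.30, unadjusted p = 0.0273, adjusted p = 0.660) and Atp6v0c.

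Between 3 h and 6 h of feeding far more of the 50 genes moved. On MR, 12 were called, 5 higher and 7 lower at 6 h, while 28.1% of all genes were called, 13.9% higher and 14.2% lower. On Con, 11 were called, 5 higher and 6 lower, while 19.6% of all genes were called, 9.23% higher and 10.4% lower. Neither count stood far from the share of all genes that was called. In all, 17 of the 50 genes (34.0%) were called on at least 1 diet, against 33.3% of all genes, and 33 were called on neither.

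A group of 6 genes was called on both diets, each in the same direction, which is 50.0% of the 12 on MR and 54.5% of the 11 on Con. Over all genes the calls on both diets were 51.2% of those on MR and 73.4% of those on Con. Of these 6, Atg7 and Atp6v0a1 were higher at 6 h, and Map1lc3b, Atg16l1, Atp6v0a2 and Atp6v1d were lower. With the 12 Con libraries fitted alone, Atp6v0a1 (adjusted p = 0.0563) and Atp6v1d (adjusted p = 0.0744) lost their call on Con, which leaves 4 genes called on both diets. The comparisons of time on MR and on Con share no library, while each shares its 6 h or 3 h libraries with the comparisons of diet.

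Map1lc3b, which encodes LC3B, the protein that decorates the autophagic membrane, had the smallest p on MR. On MR it had 69.4, 78.6 and 83.9 units (lowest, median and highest) at 6 h, against 91.9, 106 and 113 units at 3 h. On Con it had 72.1, 80.5 and 87.4 units at 6 h, against 93.8, 97.4 and 104 units at 3 h. Neither diet showed any overlap between the times. The log2 fold changes were -0.41 on MR (standard error 0.06, adjusted p = 1.40e-05 from limma) and -0.28 on Con (standard error 0.06, adjusted p = 0.00169), with an exact permutation p of 0.00216 on each. The difference between diets was -0.13 with an adjusted p of 0.811. Gabarapl2, a relative of LC3, fell on Con by 0.28 on the log2 scale (adjusted p = 0.0302 from limma), with 56.2, 75.7 and 82.2 units at 6 h, against 77.8, 87.3 and 96.6 units at 3 h. That call was lost without Con 3 h 4217 (adjusted p = 0.0694), Con 3 h 4220 (0.0585), Con 3 h 4233 (0.0620), Con 6 h 4238 (0.0547) or Con 6 h 4241 (0.0794), and with the 12 Con libraries alone (0.0698). On MR the log2 fold change was -0.06 (adjusted p = 0.646). Map1lc3a stayed near 0 on both diets, at -0.02 and -0.01.

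Sqstm1 rose on MR to 312, 344 and 380 units at 6 h, against 197, 247 and 289 units at 3 h, with no overlap. Its log2 fold change was 0.49 (standard error 0.09, adjusted p = 2.47e-04 from limma). On Con it was 0.19 (adjusted p = 0.153), and without Con 6 h 4238 it was 0.26 and passed (adjusted p = 0.0246). Tfe3 on MR had 5.06, 6.13 and 6.87 units at 6 h, against 3.03, 3.97 and 5.11 units at 3 h, and 5 of the 6 mice at 6 h lay above all mice at 3 h. It rose by a log2 fold change of 0.47 (adjusted p = 0.00333 from limma), and this call held in each of the 31 alternatives that kept the gene. On Con its log2 fold change was -0.02 (95% interval -0.25 to 0.22, adjusted p = 0.933). As given above for the interaction of diet and time, neither gene's time effects were shown to differ between the diets.

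**Figure D3:**
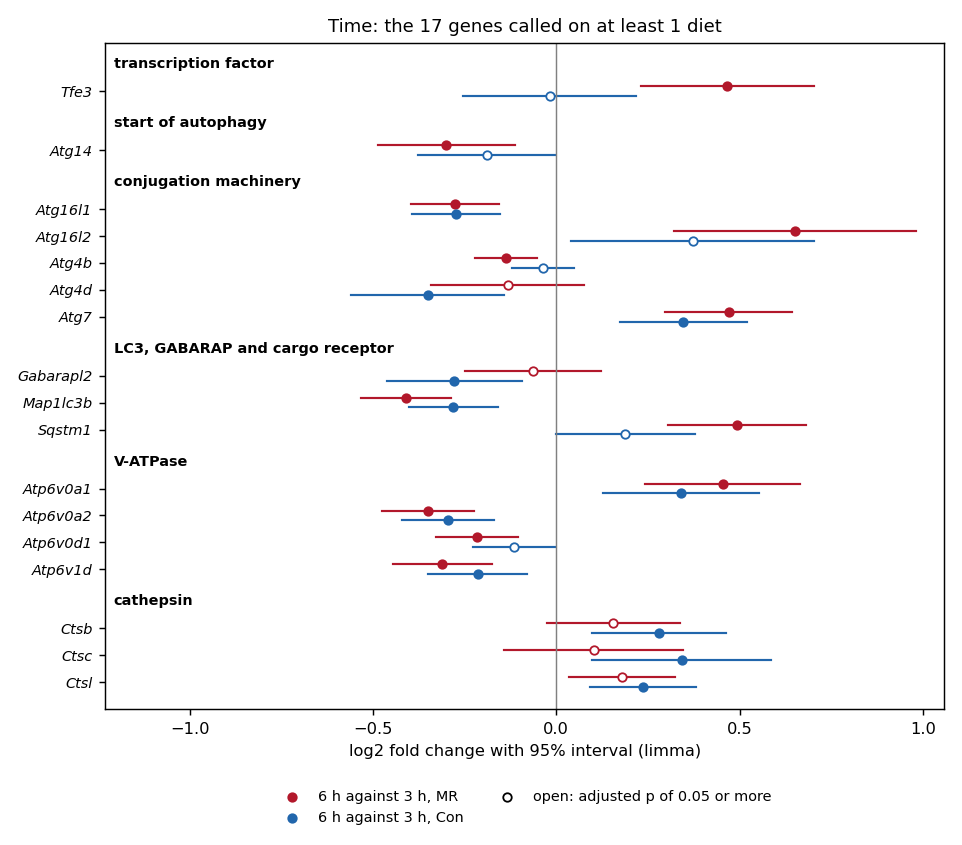
Log2 fold change of 6 h against 3 h with its 95% interval (limma) on MR (red) and on Con (blue) for the 17 genes called on at least 1 diet, grouped by role, with filled points where the adjusted p is under 0.05. The points of Map1lc3b, Atg16l1, Atg7, Atp6v0a1, Atp6v0a2 and Atp6v1d are filled on both diets. Those of Tfe3, Sqstm1, Atg14, Atg16l2, Atg4b and Atp6v0d1 are filled on MR alone, and those of Atg4d, Gabarapl2, Ctsb, Ctsc and Ctsl on Con alone.

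In the conjugation machinery the genes did not move together. Atg7 rose on MR, with 20.4, 22.5 and 24.3 units at 6 h, against 13.5, 15.7 and 19.4 units at 3 h, and the times did not overlap. Its log2 fold changes were 0.47 on MR (adjusted p = 1.64e-04 from limma) and 0.35 on Con (adjusted p = 0.00512). Atg16l1, the scaffold that places LC3 conjugation on the membrane, fell on MR, with 19.2, 20 and 21.2 units at 6 h, against 23.2, 24.6 and 25.6 units at 3 h. Its log2 fold changes were -0.28 on MR (adjusted p = 9.48e-04) and -0.27 on Con (adjusted p = 0.00192).

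The low Atg16l2 went the other way, with 2.94, 4.16 and 5.12 units at 6 h on MR, against 1.92, 2.03 and 3.03 units at 3 h. It rose by 0.65 on the log2 scale on MR (adjusted p = 0.00342 from limma), and its 0.37 on Con passed only without Con 6 h 4238 (0.55, adjusted p = 0.00130). Atg4b fell slightly on MR, by 0.14 on the log2 scale (adjusted p = 0.0146), and had -0.04 on Con (adjusted p = 0.580). Its relative Atg4d fell on Con, by 0.35 on the log2 scale (adjusted p = 0.0161), with 12.1, 14.4 and 18.3 units at 6 h, against 16.5, 18.7 and 21.7 units at 3 h. Atg4c, whose log2 fold change on MR was -0.20 (adjusted p = 0.102), passed without MR 3 h 4209 (adjusted p = 0.0399) or MR 6 h 4214 (adjusted p = 0.0465). Atg3, Atg4a, Atg5 and Atg12 were called on neither diet.

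Of the 8 genes that start autophagy, Atg14 alone was called, on MR, where it had 7.85, 9.36 and 10.2 units at 6 h, against 10.1, 11.5 and 12.5 units at 3 h. Its log2 fold change was -0.30 (adjusted p = 0.0149 from limma), and on Con it was -0.19 (adjusted p = 0.146). Ulk1 had log2 fold changes of 0.38 on MR and 0.18 on Con, with adjusted p of 0.152 and 0.546. Becn1 had -0.09 and -0.05, and Ulk2 -0.07 and -0.10, none of which passed.

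**Figure D4:**
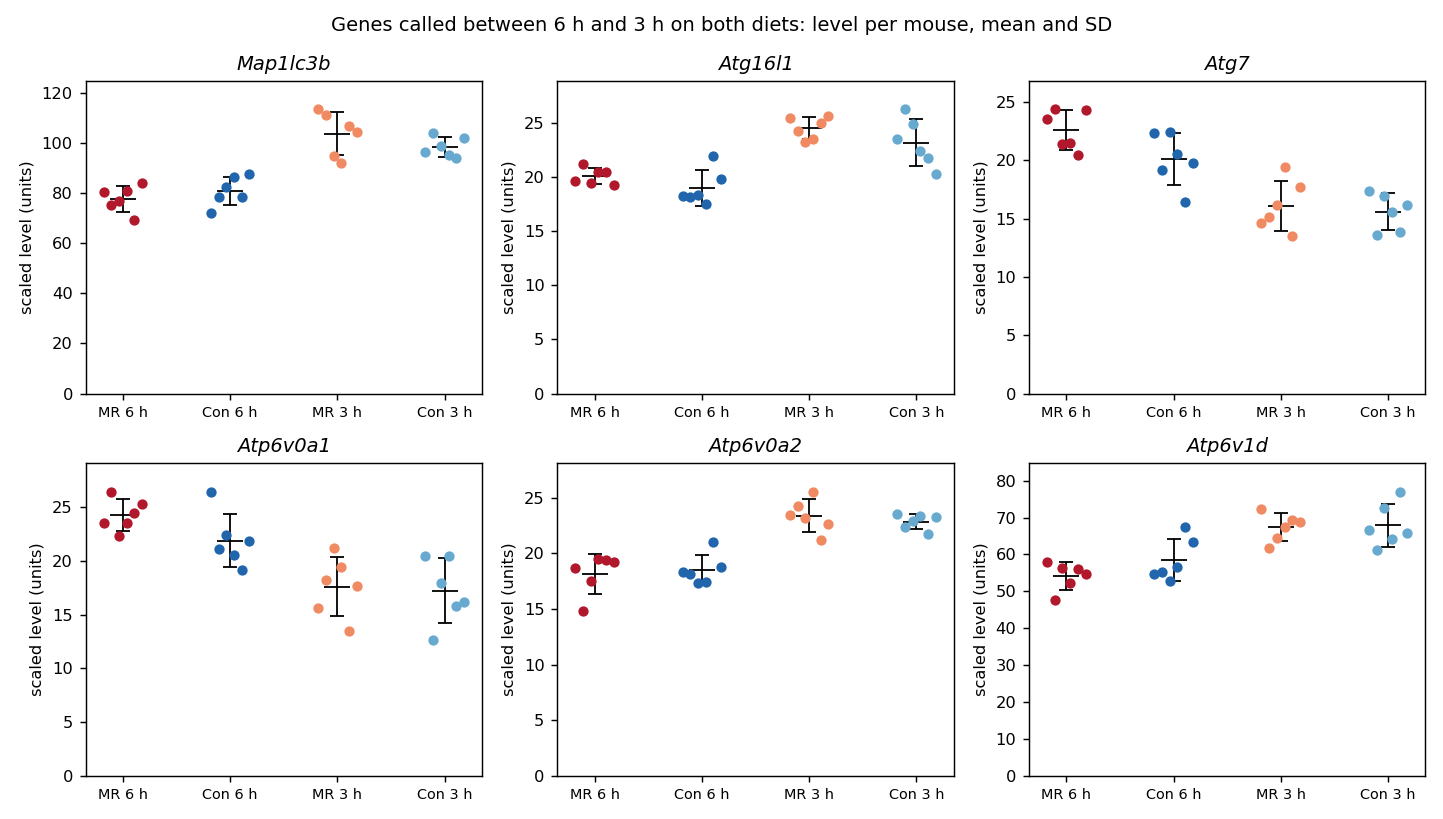
Scaled level (units, axes start at 0) in each mouse (points), with the mean and SD of 6 mice (bars), of the 6 genes called between 6 h and 3 h on both diets. On MR the 6 h and 3 h points do not overlap in any of the 6 panels, with Atg7 and Atp6v0a1 higher at 6 h and the other 4 genes lower. The genes were picked by their calls, so this separation follows in part from the choice, and its share over all genes was not counted.

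The V-ATPase moved in both directions within its V0 sector. Of the a subunits, which anchor the pump in its membrane and steer it to an organelle, Atp6v0a1 rose and Atp6v0a2 fell on both diets. On MR, Atp6v0a1 had 22.4, 24 and 26.5 units at 6 h, against 13.5, 18.0 and 21.2 units at 3 h. On Con it had 19.2, 21.5 and 26.4 units at 6 h, against 12.6, 17 and 20.5 units at 3 h. The log2 fold changes were 0.45 on MR (adjusted p = 0.00171 from limma) and 0.34 on Con (adjusted p = 0.0213), the call on Con being lost without Con 3 h 4215 (0.26, adjusted p = 0.0653) or Con 6 h 4221 (0.29, adjusted p = 0.0572).

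Atp6v0a2 had 14.8, 18.9 and 19.4 units at 6 h on MR, against 21.2, 23.3 and 25.5 units at 3 h. On Con it had 17.3, 18.2 and 21.0 units at 6 h, against 21.7, 23.1 and 23.5 units at 3 h. Neither diet showed overlap between the times. The log2 fold changes were -0.35 on MR (adjusted p = 1.19e-04 from limma) and -0.29 on Con (adjusted p = 0.00139), and both calls held in each alternative run.

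Atp6v1d, a stalk subunit of the V1 sector, had 47.6, 55.4 and 57.9 units at 6 h on MR, against 61.7, 68.2 and 72.3 units at 3 h. Its log2 fold changes were -0.31 on MR (adjusted p = 8.68e-04 from limma) and -0.21 on Con (adjusted p = 0.0224), the call on Con being lost without Con 3 h 4217 (adjusted p = 0.0527), Con 3 h 4220 (0.0572) or Con 6 h 4231 (0.0598). Atp6v0d1, a V0 subunit at the junction of the sectors, fell on MR by 0.22 on the log2 scale (adjusted p = 0.00377), with 78.3, 88.5 and 98.1 units at 6 h, against 93.0, 102 and 111 units at 3 h. On Con its log2 fold change was -0.11 (adjusted p = 0.140). The other 9 subunits were called on neither diet.

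The cathepsins called with time were Ctsb, Ctsc and Ctsl, all higher at 6 h on Con. Ctsb had 212, 228 and 353 units at 6 h on Con, against 192, 200 and 211 units at 3 h, with no overlap and a log2 fold change of 0.28 (adjusted p = 0.0273 from limma). Ctsl had 324, 364 and 397 units at 6 h, against 282, 306 and 329 units at 3 h, a log2 fold change of 0.24 (adjusted p = 0.0188). Ctsc, the activator of granule serine proteases, had 16.2, 22.7 and 31.9 units at 6 h, against 14.3, 17.2 and 20.4 units at 3 h, a log2 fold change of 0.34 (adjusted p = 0.0438). On MR the log2 fold changes were 0.16 for Ctsb (adjusted p = 0.203), 0.18 for Ctsl (adjusted p = 0.0570) and 0.10 for Ctsc (adjusted p = 0.564), and none passed. With MR 3 h 4223, MR 6 h 4214 and Con 6 h 4238 left out together, Ctsb (0.19, adjusted p = 0.0192) and Ctsl (0.21, adjusted p = 0.0415) passed on MR too. The difference between diets was not called for any of the 3.

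Con 6 h 4238 held the highest Con 6 h value of all 3. Without it Ctsb stood at 0.17 (adjusted p = 0.0375), Ctsl at 0.21 (adjusted p = 0.0390) and Ctsc at 0.24 (adjusted p = 0.0987, no longer called). The call of Ctsb was lost without Con 3 h 4215 (adjusted p = 0.0564) or Con 6 h 4231 (adjusted p = 0.0515), with no scaling factor (0.0656) and with the 12 Con libraries alone (0.100). That of Ctsc was lost with the same settings (0.0773 and 0.113) and when any 1 of 10 libraries was left out (adjusted p from 0.0508 to 0.107). Of 17 macrophage markers 14 had positive log2 fold changes on Con, with a median of 0.25, and 2, Lyz2 (0.51, adjusted p = 0.0450) and Mpeg1 (0.47, adjusted p = 0.0477), were called higher at 6 h. Without Con 6 h 4238, a setting added after seeing the data, the median was 0.02, 9 were positive and limma called none, Lyz2 standing at 0.29 (adjusted p = 0.0508) and Mpeg1 at 0.30 (adjusted p = 0.0973). The marker sum had a median of 693 units at 6 h and 664 units at 3 h. Their part in the cathepsin changes was not tested. Ctsd, whose log2 fold change on Con was 0.19 (adjusted p = 0.0779), passed without Con 3 h 4218 (adjusted p = 0.0454) or Con 6 h 4221 (adjusted p = 0.0312). Ctsl on MR passed without Con 3 h 4218 (adjusted p = 0.0372), MR 6 h 4214 (0.0406) or MR 6 h 4228 (0.0476).

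**Figure D5:**
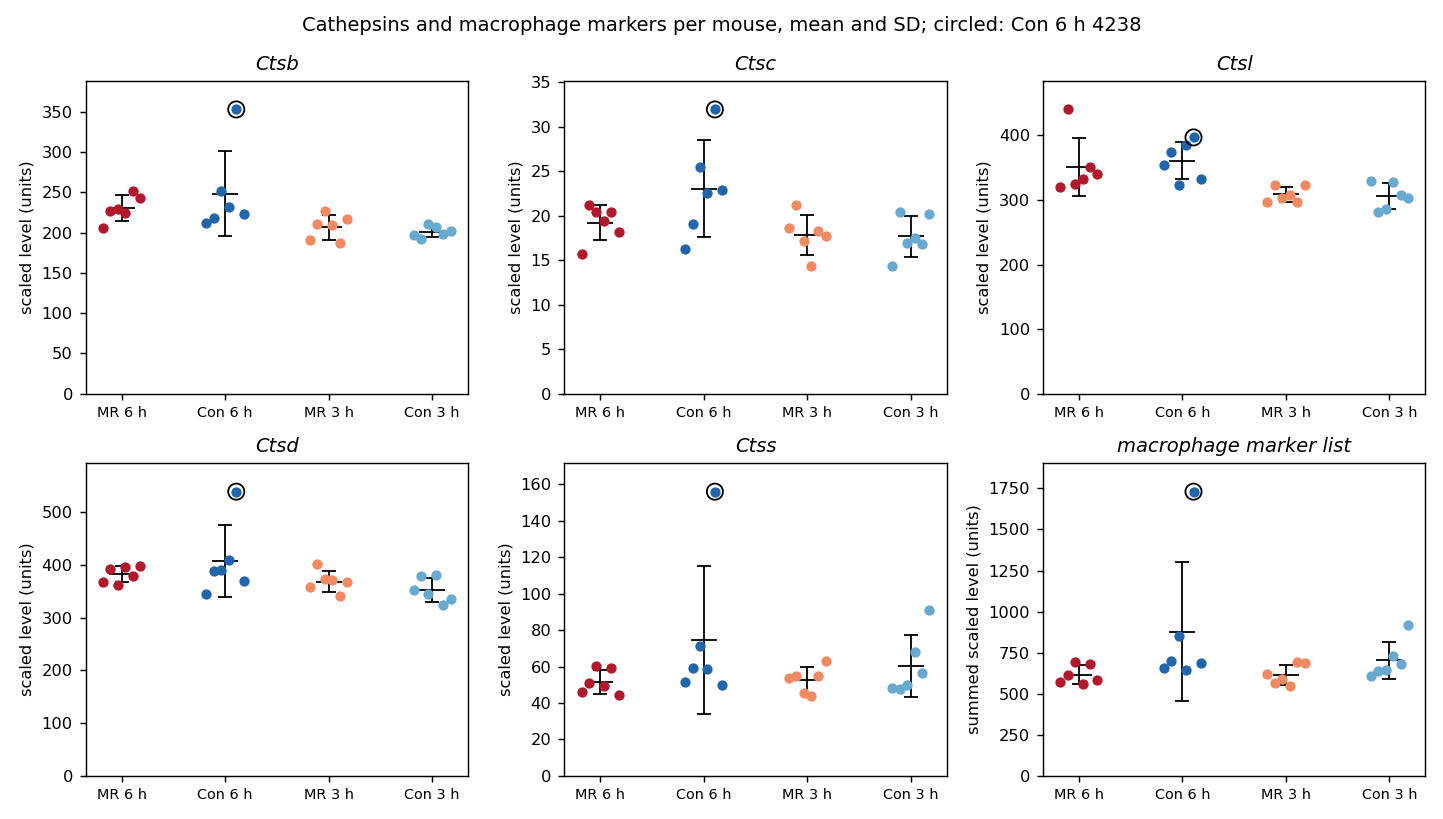
Scaled level (units, axes start at 0) of Ctsb, Ctsc, Ctsl, Ctsd and Ctss, and the summed level of 17 macrophage markers, in each mouse (points), with the mean and SD of 6 mice (bars). The circled library Con 6 h 4238 is the highest Con 6 h point in all 6 panels, with 156 units of Ctss and 1730 units of macrophage markers.

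Lamp1 had log2 fold changes of 0.01 on MR and 0.12 on Con (adjusted p = 0.0735, passing without Con 6 h 4221 at 0.0371), and Lamp2 of 0.15 on MR (adjusted p = 0.0727) and 0.11 on Con. Lamp2 on MR passed without Con 3 h 4218 (adjusted p = 0.0450) or Con 6 h 4238 (adjusted p = 0.00937), libraries that enter that comparison only through the shared estimate of the spread and the scaling. The count of calls on Con fell to 6 when the 12 Con libraries were fitted alone, 2 higher and 4 lower, and ran from 8 without Con 3 h 4217 to 14 without Con 6 h 4238 when libraries were left out singly. On MR it ran from 12 to 14 with libraries left out singly, and from 10 to 15 under the other settings.

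The other genes of the pathway were counted in the same fit, and those named from here were chosen after their values were seen. Of 44 other lysosomal genes, 6 rose and 1 fell on MR between the times, and 7 rose and 1 fell on Con. These are 13.6% and 2.27% on MR, against 13.9% and 14.2% of all genes, and 15.9% and 2.27% on Con, against 9.23% and 10.4% of all genes. Lipa, the acid lipase that splits cholesteryl esters and triglycerides in the lysosome, rose on both, by log2 fold changes of 0.56 and 0.54, with 270, 309 and 323 units at 6 h on MR, against 181, 206 and 234 units at 3 h. Tmem55b, a lysosomal membrane protein, rose by 0.42 on MR and 0.47 on Con.

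Of 30 other autophagy genes, 1 rose and 9 fell on MR, and 2 rose and 3 fell on Con. On MR 3.33% rose and 30% fell, against 13.9% and 14.2% of all genes, and on Con 6.67% rose and 10% fell, against 9.23% and 10.4%. Bnip3, a receptor for removal of mitochondria, fell by 0.72 on the log2 scale on MR, with 171, 178 and 205 units at 6 h, against 246, 305 and 383 units at 3 h, and by 0.50 on Con. Wipi1, a lipid-binding protein of the forming autophagosome, fell on MR by 0.73 on the log2 scale (adjusted p = 0.00121 from limma). The interaction of diet and time was called for none of these 30 genes, so their time effects are not shown to differ between the diets.

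Of 13 genes for mTORC1 and Tfe3 control, 4 rose and 2 fell on MR and 1 rose on Con. On MR 30.8% rose and 15.4% fell, against 13.9% and 14.2% of all genes, and on Con 7.69% rose, against 9.23%. Lamtor1, the lysosomal anchor of the Rag GTPases, rose by 0.37 on MR and 0.23 on Con. Flcn, whose protein directs mTORC1 towards TFEB and TFE3, rose on MR by a log2 fold change of 0.33 (adjusted p = 0.00466), with 9.81, 12.4 and 13.3 units at 6 h, against 8.66, 9.44 and 10.2 units at 3 h. Between MR and Con at 6 h its log2 fold change was 0.30 (adjusted p = 0.104), which did not pass. The interaction was called for none of these 13 genes either.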

How the data were processed

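Liver RNA of 24 mice was read with the Lexogen QuantSeq 3′ kit at 50 bp forward. According to the study's methods the QuantSeq pipeline on Bluebee and CLC Genomics Workbench gave the tables, and GRCm38 and DESeq2 1.22.2 stand in the submitters' processing notes. How the reads were aligned and low genes removed is not given in the sources used here. In the first table, which the authors deposited as raw counts, the values are a score, whole numbers that sum to about the same total in all libraries. In the second the authors divided that score by 1 size factor per library, which gives a signal that served as an alternative scaling. Neither holds read counts, so depth is unknown, no interval for counting error is given, and no count model was run.

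Values of the first table were scaled by TMM (the trimmed mean of M-values, with trims of 30% and 5%) and tested with limma 3.58.1 in R 4.3.3 on log2(level + 1), with 4 group means over all 24 libraries and the trend and robust options of its variance prior (statmod 1.5.0). Adjusted p-values are Benjamini-Hochberg over all 9049 genes. The exact two-sided permutation test runs over the 924 divisions of 12 mice. The step was tested on simulated data. Mice are separate animals, and labels give no batch.

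The 50 genes, the lists and the tests were chosen with earlier results of these data known. Values are given for Tfe3, Tfeb, Sqstm1, Becn1, Ulk1 and Ulk2, for genes past the threshold in any comparison, for up to 4 genes of each role with the smallest p between diets, and for the highest genes of each role. Alternatives were the authors' size factors, no factor, pseudocounts of 0.5 and 5, genes averaging at least 10 units, the 12 compared libraries alone, no trend or robust prior, MR 3 h 4223, MR 6 h 4214 and Con 6 h 4238 left out together, each library left out in turn, and a promoter window of 150 bases before the start.

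The macrophage markers were also fitted without Con 6 h 4238, which was chosen after seeing the data. RefSeq promoters could not be matched for Atg12, Atg16l1, Atp6v0a2, Atp6v1b2, Atp6v1c1, Atp6v1g1, Atp6v1h, Becn1, Ctsb, Ctsh and Map1lc3a.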

Additional observations from a re-analysis of the deposited data

Results flagged for a closer look

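Among 200 sets of 6 mice (50 genes in 4 groups), 23 held a mouse whose gap to its neighbour was a larger part of the range than Dixon's 95% critical value. Chance flags about 1 in 20 such sets where the values are continuous and normally spread, a rate that does not hold for the whole-number scores of low genes. Of the 23 values, 11 belonged to Con 6 h 4238. It was high in Atp6v0b (126 units), Atp6v0e (133), Atp6v1b2 (49.3), Atp6v1c1 (42.0), Ctsb (353), Ctsd (539) and Ctss (156), and low in Atg14 (6.39), Lamp2 (284), Sqstm1 (208) and Ulk2 (28.3). The same library held 1730 units of macrophage and 710 units of stellate cell markers, and the part of those cells in these values was not tested.

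The other 12 values were spread over other libraries. MR 6 h 4219 was high in Ulk1 (41.3 units) and Ctsl (440) and low in Ulk2 (40.2), and it also held 1538 units of blood markers. MR 6 h 4239 was low in Atg4a (4.08), and MR 6 h 4214 was high in Atg4c (3.92). Con 6 h 4231 was high in Becn1 (52.9). MR 3 h 4209 was low in Atg4c (3.02) and high in Atp6v1a (31.3), and MR 3 h 4216 was high in Atp6v0b (115). Con 3 h 4218 was high in Atg16l2 (3.89), and Con 3 h 4233 was high in Ctsf (36.4) and Tfe3 (5.06). In the deposited scores the flagged values of Atg4a, Atg4c, Atg16l2 and Tfe3 each lay a single whole-number step from the other mice of their group. Among the 50 genes, no difference between the diet effects at 6 h and at 3 h was called.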

How the results depend on the processing

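The count of genes called between MR and Con at 6 h (1, Tfe3) became 0 with the authors' size factors, with no scaling factor, among genes averaging at least 10 units (which removes Tfe3), with the 12 libraries of that time alone, and with MR 3 h 4223, MR 6 h 4214 and Con 6 h 4238 left out together. Singly left-out libraries gave 0 to 1. The adjusted p of Tfe3 ran from 0.0203 to 0.121 over 31 alternatives. The count with time on Con (11) became 6 with the 12 Con libraries alone and ran from 8 to 14 with single libraries left out. That on MR (12) ran from 12 to 14 in the same way, was 10 among genes averaging at least 10 units and 15 with those 3 libraries left out, and the counts for diet at 3 h and the interaction stayed 0. Over all genes, calls for diet at 6 h numbered 67, against 31 with the 12 libraries alone, 22 with those 3 left out and 33 to 78 with single libraries left out, and calls with time on Con 1774, against 1163 with the 12 libraries alone. Calls of the interaction numbered 6 and ran from 2 to 8. Of 4555 values of the genes under alternatives, 54 lost and 18 gained a call, and no called value changed sign, while 100 uncalled ones did. The cause of these changes was not tested. The shorter promoter window gave 30.8% of the genes with the core E-box, against 9.78% of the table's genes. The rounded scores limit genes under 10 units most. No paired analysis was possible because mice of different groups share no number.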
